A study of Homo sapiens with 10 samples.

Results

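The ERBB receptors and the ligands of the EGF family were followed across 7 ovarian cancer cell lines. The 10 genes were chosen by name, with earlier results of these data known. They were the 4 receptors EGFR, ERBB2, ERBB3 and ERBB4, and the 6 ligands AREG, EREG, HBEGF, TGFA, NRG1 and BTC. They are 10 of the 57110 genes in the deposited annotation and hold 42 of its 99493 transcripts, all of them protein coding, of which 26 reached 1 count in a library. RNA of untreated cultures, as far as the labels say, was read on nanopore instruments, which sequence whole molecules. COV362, COV504, OVKATE, OVMANA, OVTOKO and SK-OV-3 had 1 PromethION library each, and IGROV-1 had 2 PromethION and 2 MinION libraries. All groups are established human lines without a stated genotype change or agent, and the series was made to benchmark transcript quantification. The labels do not say whether the IGROV-1 replicates came from separate cultures, so p-values measure the spread between these libraries, which may be technical.

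The ERBB proteins are receptor tyrosine kinases of the cell surface that work in pairs. A ligand opens the outer part of EGFR, ERBB3 or ERBB4 so that it can pair, whereas ERBB2 has no known ligand of its own and is a preferred partner, and ERBB3 has little kinase activity and signals through its partners. The ligands are made as membrane proteins and released by proteases. AREG, EREG, HBEGF, TGFA and BTC can act through EGFR, while NRG1 acts through ERBB3 and ERBB4. In ovarian cancer the family is known for gain of ERBB2 in some tumours and for ligand loops in which a tumour cell makes both ligand and receptor.

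Library totals lay between 1729782 and 3666224 counts. Levels are given as CPM (counts scaled to the library total), with 95% Wilson intervals for single libraries that cover counting error only. A count of 0 allows up to 3 counts, a floor of 0.643 CPM for the IGROV-1 PromethION pair, 0.435 CPM for the MinION pair and 1.18 to 1.73 CPM for each other line. Folds set against the floor divide the level of the other line by it, in plain CPM. They leave out the counting error of that level and are not strict lower bounds. The labelled origin was checked against markers. PAX8, a factor of Mullerian epithelium, lay between 84.1 and 340 CPM in the 7 lines. The ovarian tumour markers WT1 and MUC16 were not general: WT1 was at 76.2 CPM in OVKATE, at 0.392 in COV362 and at 0 in the other 5, and MUC16 was at 0 in OVTOKO and SK-OV-3 and at 0.43 CPM in IGROV-1. Over 5 epithelial markers the sum ran from 460 CPM in OVTOKO to 8791 in COV504, and the adhesion gene CDH1 was listed at 0 in IGROV-1. Summed mesenchymal markers ran from 443 CPM in OVKATE to 6852 in SK-OV-3, mostly VIM. Summed fibroblast markers reached 434 CPM in COV362 and 277 in SK-OV-3, almost all from the collagen genes COL1A1 and COL1A2, while DCN and PDGFRB were below 1 CPM in every line. Leukocyte markers reached at most 4.45 CPM and endothelial markers 25.8 CPM. Fitted changes use TMM scaling, which removed a shift from plain CPM ratios against IGROV-1 of 0.30 (log2) in OVKATE and 0.23 in SK-OV-3. In the other 4 lines the shift was within 0.08 in either direction.

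Against IGROV-1 PromethION, most of the 10 genes differed in each line (edgeR quasi-likelihood test, 13030 genes tested, Benjamini-Hochberg adjusted p under 0.05, 2 residual degrees of freedom). OVMANA had 7 members higher and 1 lower, where 18.9% of all tested genes were higher and 16.5% lower. In OVKATE 7 were higher and 0 lower (26.8% and 22.4% of all genes). OVTOKO had 5 higher and 1 lower (18.2% and 15.9%). SK-OV-3 likewise had 5 higher and 1 lower (22.0% and 19.8%). COV362 had 6 higher and 2 lower (23.7% and 18.8%), and COV504 had 7 higher and 1 lower (24.0% and 19.6%). In either direction the share of all genes was 35.4% in OVMANA, 49.2% in OVKATE, 34.1% in OVTOKO, 41.8% in SK-OV-3, 42.5% in COV362 and 43.5% in COV504. These 43 calls in 60 member tests make 71.7%, beside 41.1% over all genes. Because the members were chosen with earlier results of these data known, the excess is a description, not a test. All 6 comparisons share the same 2 IGROV-1 libraries, in which NRG1, BTC and AREG had no count, so they are not independent. Each lone library was assumed to vary like the IGROV-1 replicates. The spread within any other line was not measured. With DESeq2, 29 of the 43 calls were made. Calls over all genes also fell under DESeq2, as the closing section gives, so the 29 is not read as a result about the members.

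**Figure D1:**
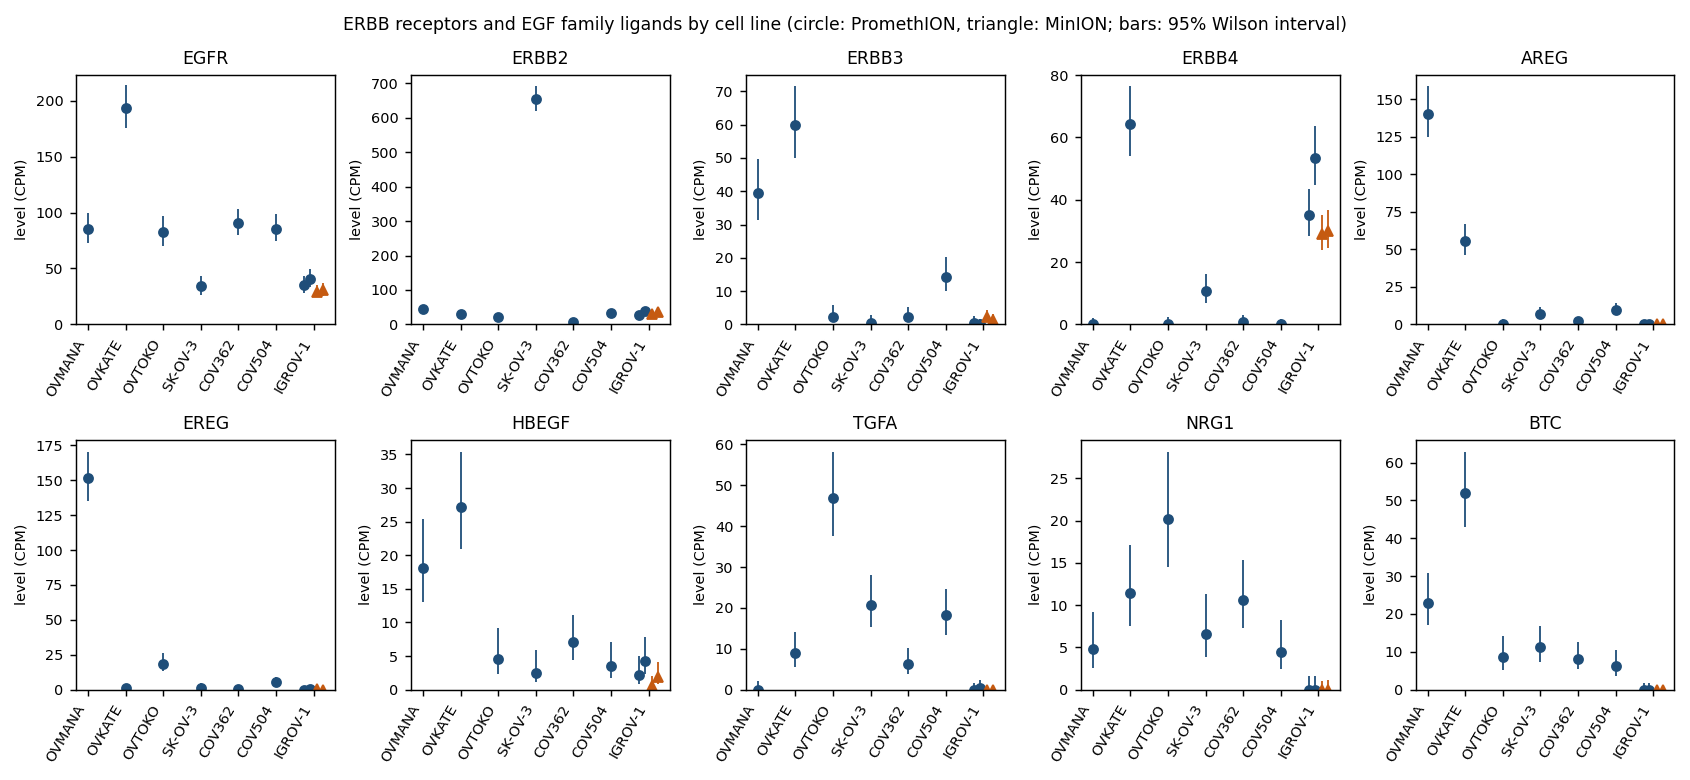
Level of each receptor and ligand gene (CPM, linear axis from 0, a separate scale for each gene) in the 10 libraries, with 95% Wilson intervals. Circles are PromethION and triangles are MinION libraries; ERBB2 stood at 655 CPM in SK-OV-3 and at or below 45.4 CPM in the other PromethION lines, and NRG1 and BTC were at 0 in all 4 IGROV-1 libraries.

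EGFR, the receptor of most ligands in the set, was found in every library. Its level was 194 CPM in OVKATE (interval 176 to 214), 90.9 in COV362, 85.4 in COV504, 85.0 in OVMANA, 82.7 in OVTOKO and 33.9 in SK-OV-3 (26.7 to 43.1). IGROV-1 gave 35.0 and 40.8 CPM on PromethION, a mean of 37.9 ± 4.09 (SD, n = 2), and 29.2 and 30.6 on MinION. OVKATE was thus the highest line, 4 lines formed a middle group, and SK-OV-3 and IGROV-1 were the lowest. The log2 change against IGROV-1 was 2.05 ± 0.17 (SE) in OVKATE with an edgeR adjusted p of 4.1e-05. EGFR was higher than in IGROV-1 in 5 of the 6 lines, and in SK-OV-3 the change was -0.39 ± 0.21 (adjusted p = 0.179). Under DESeq2 the calls of OVMANA, OVTOKO, COV362 and COV504 ended, with adjusted p of 0.0741, 0.0902, 0.0521 and 0.108. In the order of levels, OVKATE differed from COV362 by a log2 of 0.75 ± 0.19 (edgeR adjusted p = 0.0191). That call ended without IGROV-1 MinION replicate 1 or replicate 2 and under DESeq2. The steps among COV362, COV504, OVMANA and OVTOKO were not called, the largest at a log2 of 0.21. The transcript EGFR-201, which encodes the full receptor in 1210 codons, held 96.0% to 99.95% of EGFR counts in all libraries.

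The genes beside EGFR on chromosome 7 did not all have their highest level in OVKATE. Their share of higher calls there was near that of all genes, and 4 tested genes are too few to show whether they followed EGFR as a set. Of the 4 flanking genes tested, 1 was higher in OVKATE than in IGROV-1, against 26.8% of all genes, and it was highest in OVKATE like EGFR itself: VOPP1, 389 kb from EGFR centre to centre, at 61.8 CPM against 32.8 (log2 change 0.61 ± 0.21, edgeR adjusted p = 0.0366). VOPP1 was next in COV504 with 58.7 CPM and in COV362 with 50.9. SEC61G, a subunit of the protein translocation channel, was at 204 CPM in OVKATE and between 113 and 243 in the others. LANCL2 was at 13.4 CPM in OVKATE and highest in COV362, at 25.1 CPM. CHCHD2 was at 761 CPM in OVKATE and highest in OVMANA, at 827 CPM. In SK-OV-3, the line lowest in EGFR, 0 of the 4 were higher than in IGROV-1 and 3 were lower, against 22.0% and 19.8% of all genes, with a median log2 change of -1.05. SEC61G at 113 CPM, LANCL2 at 5.06 and CHCHD2 at 281 were each lowest in that line.

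ERBB2, the receptor without a known ligand, had 655 CPM in SK-OV-3 (interval 620 to 692), from 1293 counts. The next line was OVMANA with 45.4 CPM, followed by COV504 with 33.4, OVKATE with 29.7, OVTOKO with 21.4 and COV362 with 5.88 (3.56 to 9.7). IGROV-1 gave 26.1 and 40.0 CPM on PromethION, a mean of 33.0 ± 9.82 (SD, n = 2), and 30.6 and 35.2 on MinION. SK-OV-3 stood apart at the top, COV362 was lowest, and the other 5 lines lay between 21.4 and 45.4 CPM. Against IGROV-1 the log2 change in SK-OV-3 was 4.08 ± 0.22 (edgeR adjusted p = 5.9e-06) and in COV362 it was -2.44 ± 0.37 (adjusted p = 0.00129). The 4 other lines were within 0.55 log2 units of IGROV-1 and were not called. Of these, OVMANA was called higher without IGROV-1 PromethION replicate 2 (log2 change 0.86, adjusted p = 0.0215). OVKATE and OVTOKO were called lower without PromethION replicate 1 (-0.73 and -0.83, adjusted p = 0.0416 and 0.0443).

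The ratio of the highest to the next line was 14.4 for ERBB2. Of 12744 genes with at least 5 CPM in a line, 329 (2.58%) had a ratio that large, and 50 of them had their highest level in SK-OV-3. In the order of levels, SK-OV-3 differed from OVMANA by a log2 of 3.56 ± 0.28 (edgeR adjusted p = 6.0e-05). OVTOKO differed from COV362 by 1.89 ± 0.46 (adjusted p = 0.0141), which ended without MinION replicate 1 (0.0893) or replicate 2 (0.0723), with the PromethION libraries alone (0.0636) and under DESeq2 (0.0582). The single steps from OVMANA down to OVTOKO were not called, but OVMANA exceeded OVKATE by 0.98 ± 0.32 (adjusted p = 0.0419, from 0.00656 to 0.372 over 8 alternatives).

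The genes on the flanks of ERBB2 on chromosome 17 were high in SK-OV-3 as well. SK-OV-3 is a line widely known to carry extra copies of ERBB2, but DNA was not measured here. Of 17 listed neighbours, 13 were tested, and 9 were higher in SK-OV-3 than in IGROV-1 and 0 lower, against 22.0% and 19.8% of all genes. The median log2 change of the 13 was 1.68, beside 0.00 over all genes. The 9 and the median include PPP1R1B, PNMT and TCAP, which passed the expression filter only through SK-OV-3. They were at 676, 23.8 and 5.06 CPM there, and at most at 0.445, 0.989 and 1.48 CPM in the other lines. Their higher calls follow from that selection and are no separate support. STARD3, a cholesterol transporter 58.9 kb from ERBB2, was at 329 CPM in SK-OV-3 and between 11.9 and 30.7 in the other lines (log2 change 4.31 ± 0.22, edgeR adjusted p = 4.8e-06). PPP1R1B, a phosphatase inhibitor 77.5 kb away, was at 676 CPM in SK-OV-3 and at most 0.445 CPM in the other lines. PGAP3, an enzyme of GPI anchor remodelling, was at 89.6 CPM against 3.53 to 13.4. GRB7, an adaptor that binds ERBB2, was at 86.1 CPM against 7.56 to 62.5 in the others, with OVMANA next.

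At greater distances ORMDL3, at 215 kb, had a log2 change of 1.68 ± 0.19 (edgeR adjusted p = 0.000276), and PSMD3, at 280 kb, had 1.11 ± 0.19 (0.00206). MED24, at 331 kb, had -0.78 ± 0.31 (0.072). On the other side MED1, at 281 kb, had 0.24 ± 0.25 (0.477), and CDK12, at 196 kb, had 0.34 ± 0.28 (0.364). Among the other lines OVTOKO had 2 of the list higher and 0 lower, OVMANA 2 and 1, COV504 1 and 1, and OVKATE and COV362 0 and 4 each. PGAP3 and MIEN1 overlap ERBB2 on the opposite strand, and with no statement on strand in the sources, reads of the overlap cannot be told apart.

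**Figure D2:**
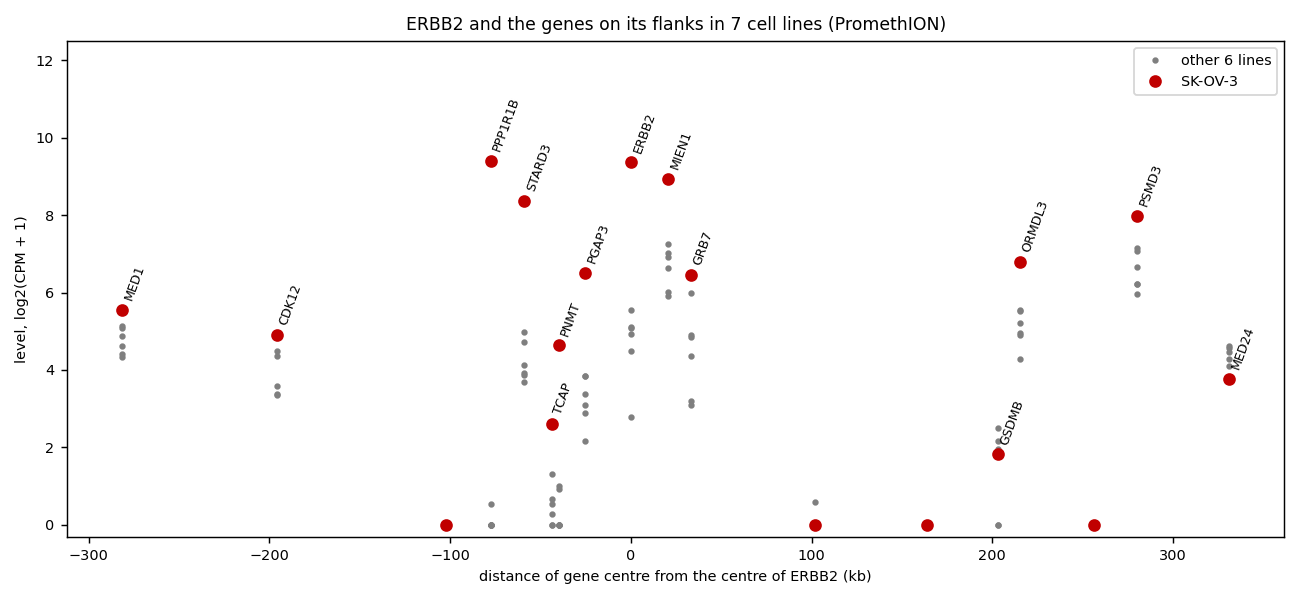
Level as log2(CPM + 1) of ERBB2 and 17 neighbouring genes against the distance of their centres from that of ERBB2 (kb), with SK-OV-3 in red and the other 6 PromethION lines in grey. Within each gene, the red point lies above the grey ones from PPP1R1B to GRB7, and MED24 at 331 kb lies within or below them; genes of different length are not compared.

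ERBB2 counts lay mainly on ERBB2-201, which encodes the 1255 codons of the full receptor and held 85.5% to 96.7% of the counts in every library. In SK-OV-3, where the depth was greatest, it held 94.7%. ERBB2-205, which ends after 603 codons, before the part that encodes the kinase, held 2.52% there, from 32.6 estimated counts, and up to 8.60% elsewhere, in IGROV-1 PromethION replicate 2, where this is 8 counts. ERBB2-218 lacks an exon of 253 bases (GRCh38, chr17:39727295-39727547) and encodes 1055 codons. It held 1.25% in SK-OV-3, from 16.2 counts, and at most 7.26% elsewhere, in COV362, where this is 1.1 counts. Transcript usage of ERBB2 was tested against IGROV-1 in all 6 lines and was called in 0, with the lowest edgeR adjusted p at 0.556 in OVMANA. Usage was called for 2.75% of 4730 genes in OVMANA, 4.97% in OVKATE, 1.35% in OVTOKO, 2.07% in SK-OV-3, 2.98% in COV362 and 2.56% in COV504. The forms ERBB2-201 and ERBB2-218 also differ in the first exon and at the 3′ end. The junction around the missing exon is shown because this exon is the internal difference between them, with the last 15 bases of the shared exon in lower case and the first 15 of the next exon in capitals.
ERBB2-201: agctcatctaccaggAGTGGCGGTGGGGAC
ERBB2-218: agctcatctaccaggAATATGTGAACCAGC

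ERBB3, the neuregulin receptor with little kinase activity, ranged from high to near 0. It was at 59.9 CPM in OVKATE (interval 50.1 to 71.5), 39.5 in OVMANA and 14.2 in COV504. COV362 had 2.35 CPM, OVTOKO 2.31 and SK-OV-3 0.506, from 6, 4 and 1 counts. IGROV-1 had 1 and 0 counts on PromethION and 8 and 4 on MinION. OVKATE, OVMANA and COV504 were therefore the lines with ERBB3, and the SK-OV-3 library with the most ERBB2 had almost none. Against IGROV-1, ERBB3 was called higher in OVMANA (edgeR adjusted p = 5.5e-05), OVKATE (2.5e-05), COV504 (0.000545) and COV362 (0.049). The COV362 call rested on 6 counts and ended without PromethION replicate 2 (0.138), MinION replicate 1 (0.0968) or MinION replicate 2 (0.0844). It also ended with no filter (0.0783), with PromethION alone (0.0782) and under DESeq2 (0.266). OVTOKO was called without PromethION replicate 1 (0.0353) and otherwise not (0.0796). In the order of levels, OVKATE exceeded OVMANA by a log2 of 0.23 ± 0.31, a step that was not called. OVMANA exceeded COV504 by 1.61 ± 0.37 (adjusted p = 0.0114), which ended without MinION replicate 1 and under DESeq2. COV504 exceeded COV362 by 2.45 ± 0.58 (0.0179), which ended without MinION replicate 1 or replicate 2, with PromethION alone and under DESeq2.

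Most ERBB3 counts were on ERBB3-201, which encodes the full 1342 codons: 90.6% in OVKATE, 85.9% in OVMANA and 88.7% in COV504. The short form ERBB3-202 runs past the end of an early exon and encodes 183 codons, a piece of the outer part of the receptor. It held 12.2% in OVMANA, from 9.0 counts, 10.2% in COV504, from 3.3 counts, and 7.62% in OVKATE, from 9.2 counts. IGROV-1 itself had too few ERBB3 counts for a share. The 15 bases before the point where both forms part are in lower case and the 15 after it in capitals.
ERBB3-201: tgactcagctcaccgAGATTCTGTCAGGGG
ERBB3-202: tgactcagctcaccgGTCAGTTCCCGATGG

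ERBB4, a receptor for neuregulins and for some EGF family ligands, was found in few lines. OVKATE had 64.3 CPM (interval 54.2 to 76.3), from 130 counts. IGROV-1 had 35.0 and 53.3 CPM on PromethION, a mean of 44.1 ± 12.9 (SD, n = 2), and 28.9 and 30.0 on MinION. SK-OV-3 had 10.6 CPM from 21 counts, COV362 0.784 from 2 counts, and OVMANA, OVTOKO and COV504 had none. OVKATE stood above IGROV-1 by a log2 of 0.24 ± 0.26, a step that edgeR did not call. SK-OV-3 was lower than IGROV-1 by a log2 of -2.28 ± 0.36 (adjusted p = 0.00147), a call that ended under DESeq2 (0.0806). SK-OV-3 was higher than COV362 (log2 3.41 ± 0.84, adjusted p = 0.0146). That call ended without MinION replicate 1 or replicate 2, with PromethION alone and under DESeq2. Set against the floor of 3 counts, ERBB4 was 27.5-fold lower in OVMANA than in IGROV-1, 25.5-fold lower in OVTOKO and 33.1-fold lower in COV504.

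The transcripts of ERBB4 differ in an exon that encodes part of the tail inside the cell. Forms with this exon, known as CYT-1, carry a binding site for PI3 kinase that CYT-2 forms lack. The exon is number 26 of 28 in ERBB4-202, at chr2:211387945-211387992 on the minus strand of GRCh38, 48 bases or 16 codons long. ERBB4-202 was the annotated transcript with the exon, while ERBB4-203 and ERBB4-205 join exon 25 to exon 27 directly. The exon is in capitals in the first sequence below, between 15 bases of each neighbour. In the second, the capitals are the first bases of the next exon.
ERBB4-202: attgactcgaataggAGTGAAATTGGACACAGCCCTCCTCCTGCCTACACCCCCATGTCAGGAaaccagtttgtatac
ERBB4-203: attgactcgaataggAACCAGTTTGTATAC

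In OVKATE 68.0 of 130 ERBB4 counts, or 52.3% (95% Wilson interval 43.8 to 60.7), were assigned to the transcript with the exon. The shares in IGROV-1 were 11.02% (5.88 to 19.6) and 16.7% (11.4 to 24.5) on PromethION, a mean of 13.8% ± 3.995 (SD, n = 2). On MinION they were 16.9% (11.02 to 25.3) and 37.4% (28.2 to 47.1). SK-OV-3 had 8.14% (2.65 to 28.9), from 21 counts. The OVKATE share lay above all 4 IGROV-1 shares, whose own spread was wide: the interval of MinION replicate 2 did not overlap those of the other 3 IGROV-1 libraries and overlapped that of OVKATE. In the usage test across all genes the difference of OVKATE from IGROV-1 PromethION did not pass (edgeR adjusted p = 0.165). Between the instruments it did not pass either (adjusted p = 0.876, where 5.98% of 2979 genes were called). ERBB4-203, which also starts farther downstream, held 84.7% and 79.9% in the IGROV-1 PromethION libraries, 81.7% and 57.2% in the MinION libraries, 43.0% in OVKATE and 89.5% in SK-OV-3. The last exon, of 8344 bases, makes 68.8% of ERBB4-202, so a read that ends within it cannot tell the forms apart, and the assignment then rests on the estimate.

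**Figure D3:**
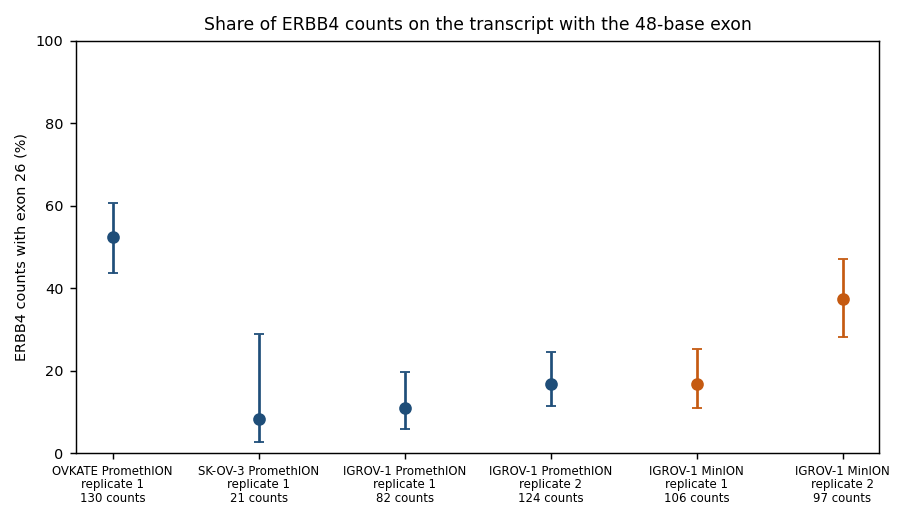
Share of ERBB4 counts (%) assigned to the transcript with exon 26, in the 6 libraries with at least 20 ERBB4 counts, with 95% Wilson intervals; blue is PromethION and orange MinION. OVKATE is at 52.3%, the IGROV-1 libraries run from 11.02% to 37.4%, and SK-OV-3 is at 8.14%.

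Among the ligands, amphiregulin (AREG) and epiregulin (EREG) were both highest in OVMANA. AREG was at 141 CPM there (interval 125 to 159), 55.9 in OVKATE, 9.34 in COV504, 6.58 in SK-OV-3, 1.96 in COV362 and 0.578 in OVTOKO. It had 0 counts in both IGROV-1 PromethION libraries and 0 and 1 on MinION. OVMANA and OVKATE were thus high and the others low or near 0. Set against the floor, AREG was 219-fold higher in OVMANA than in IGROV-1 and 87.0-fold higher in OVKATE. It was called higher in 5 of 6 lines. The COV362 call (edgeR adjusted p = 0.0271) rested on 5 counts and ended without MinION replicate 1 (0.0792) or replicate 2 (0.0655). It also ended with no filter (0.0502), with PromethION alone (0.0577) and under DESeq2 (0.0649). In the order of levels OVMANA exceeded OVKATE by a log2 of 1.69 ± 0.26 (adjusted p = 0.00234), and OVKATE exceeded COV504 by 2.35 ± 0.36 (0.00274). Both steps ended under DESeq2. No later step was called.

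EREG was at 152 CPM in OVMANA (interval 135 to 170) and 18.5 in OVTOKO, then 5.34 in COV504, 1.52 in SK-OV-3, 1.48 in OVKATE and 0.784 in COV362. IGROV-1 had 0 and 1 counts on PromethION and 1 and 0 on MinION. OVKATE, the line next highest in AREG, was near 0 for EREG, and OVTOKO showed the opposite. EREG was called higher than in IGROV-1 in OVMANA (edgeR adjusted p = 4.8e-06), OVTOKO (0.000409) and COV504 (0.0073), the last of which ended under DESeq2 (0.0566). OVMANA exceeded OVTOKO by a log2 of 3.02 ± 0.33 (adjusted p = 0.000523). OVTOKO exceeded COV504 by 1.94 ± 0.50 (0.0193), which ended without MinION replicate 1 (0.0674) or replicate 2 (0.0551). Both steps ended under DESeq2. The ratio of OVMANA to the next line was 8.20, and 3.81% of 12744 genes had one as large.

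EREG and AREG are neighbours on chromosome 4, with 56.4 kb between them, and BTC lies 290 kb beyond AREG on the other strand. Because the first pair was highest in the same line, the 250 bases before their RefSeq starts (GRCh38.p14, plus strand) are shown. EREG spans chr4:74364895-74365144 and AREG chr4:74444886-74445135. Capitals mark matches on either strand to 4 motifs: the cyclic AMP response element TGACGTCA, the AP-1 motif TGANTCA, the TATA box TATAAA and the GC box GGGCGG.
EREG: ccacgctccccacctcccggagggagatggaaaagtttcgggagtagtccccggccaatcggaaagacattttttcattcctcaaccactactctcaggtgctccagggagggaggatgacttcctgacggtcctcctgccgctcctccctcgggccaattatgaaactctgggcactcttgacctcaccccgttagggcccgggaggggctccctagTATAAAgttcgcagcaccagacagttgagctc
AREG: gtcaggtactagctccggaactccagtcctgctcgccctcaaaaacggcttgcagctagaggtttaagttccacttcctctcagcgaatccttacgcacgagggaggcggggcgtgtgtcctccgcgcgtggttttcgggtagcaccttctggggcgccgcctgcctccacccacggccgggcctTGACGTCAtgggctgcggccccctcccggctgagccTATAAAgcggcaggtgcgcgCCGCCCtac

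Both windows held a TATA box, at position -32 of EREG and -29 of AREG, a motif found in 10.7% of 35116 RefSeq promoter windows of this length. The response element was in AREG alone of the pair, at -65, and in 1.65% of all windows. The GC box was in AREG, at -9, and in 42.6% of windows, and AP-1, found in 6.57%, was in neither. The matches do not overlap. They describe the letters and are not evidence of binding. The promoter table had entries for 8 of the 10 genes.

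Betacellulin (BTC), which can act through EGFR and ERBB4, was at 51.9 CPM in OVKATE (interval 42.9 to 62.9), 23.0 in OVMANA, 11.1 in SK-OV-3, 8.67 in OVTOKO, 8.23 in COV362 and 6.23 in COV504. It had no count in the 4 IGROV-1 libraries. All 6 lines were called higher than IGROV-1, with edgeR adjusted p from 0.000103 to 0.0046. Set against the floor, the folds ran from 9.69 in COV504 to 80.8 in OVKATE. OVKATE exceeded OVMANA by a log2 of 0.81 ± 0.33, which did not reach an adjusted p under 0.05. OVMANA exceeded SK-OV-3 by a log2 of 1.33 ± 0.41 (0.0488). That call ended without MinION replicate 1 or replicate 2, with no filter (0.081), with PromethION alone (0.0797) and under DESeq2. The steps among the 4 lower lines were not called. BTC did not follow EREG and AREG in having its highest level in OVMANA.

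HBEGF, the heparin-binding ligand, was at 27.2 CPM in OVKATE and 18.2 in OVMANA. The other lines had 7.05 CPM in COV362, 4.63 in OVTOKO, 3.56 in COV504 and 2.53 in SK-OV-3, and IGROV-1 had 2.14 and 4.30 on PromethION (mean 3.22 ± 1.53, SD, n = 2) and 0.546 and 1.85 on MinION. OVKATE and OVMANA thus stood above the rest. Both were called higher than IGROV-1, with log2 changes of 2.76 ± 0.47 (edgeR adjusted p = 0.00165) and 2.54 ± 0.51 (0.00573). Both calls ended under DESeq2 (0.187 and 0.3). No step in its order of levels was called. The step from OVMANA to COV362 (log2 1.38 ± 0.52, adjusted p = 0.071) was called without PromethION replicate 1 (0.0206) or replicate 2 (0.0213).

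TGFA, the ligand known from autocrine loops with EGFR, was at 46.8 CPM in OVTOKO (interval 37.7 to 58.2), 20.8 in SK-OV-3, 18.2 in COV504, 8.90 in OVKATE and 6.27 in COV362. OVMANA had no TGFA count and the IGROV-1 libraries had 1 in all. OVMANA, the line highest in AREG and EREG, was therefore at the bottom for TGFA, 29.2-fold lower than OVTOKO when set against the floor. TGFA was called higher than IGROV-1 in 5 lines, with edgeR adjusted p from 0.000112 to 0.00549. Under DESeq2 the calls of OVKATE (0.0513) and COV362 (0.0801) ended. OVTOKO exceeded SK-OV-3 by a log2 of 1.48 ± 0.36 (0.0221), which ended without MinION replicate 1 or replicate 2 and under DESeq2. COV504 and OVKATE differed by 1.25 ± 0.46 (0.0701), called without PromethION replicate 1 (0.0294) or replicate 2 (0.0305).

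NRG1, the ligand of ERBB3 and ERBB4, was at 20.2 CPM in OVTOKO (interval 14.6 to 28.1), 11.4 in OVKATE, 10.6 in COV362, 6.58 in SK-OV-3, 4.81 in OVMANA and 4.45 in COV504. It had no count in the 4 IGROV-1 libraries. Every other line therefore had the transcript and IGROV-1 did not show it at this depth. All 6 calls against IGROV-1 passed, with folds set against the floor of 6.92 in COV504 to 31.5 in OVTOKO. The OVMANA call (edgeR adjusted p = 0.0117) ended without MinION replicate 1 (0.0533), and under DESeq2 it (0.0637) and the COV504 call (0.0695) ended. Among the 6 lines no step was called. That from OVTOKO to OVKATE (log2 1.21 ± 0.47, adjusted p = 0.0837) was called without PromethION replicate 1 (0.0361) or replicate 2 (0.0356). NRG1 has several starts, and its counts were divided among NRG1-202, NRG1-210 and NRG1-216. NRG1-202 held 37.6% in OVKATE, 55.7% in OVTOKO and 66.1% in COV362, the 3 lines with over 20 counts. NRG1-210 held 42.6%, 29.9% and 27.9% there. IGROV-1 had no NRG1 count, so its usage gives no comparison.

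Side by side, the lines combined receptors and ligands differently. OVKATE had the highest EGFR, ERBB3, ERBB4, HBEGF and BTC of the 7 lines, 5 of the 10 genes, where it was the highest line for 26.4% of 12744 genes. These ranks use plain CPM, whose ratios to IGROV-1 lay 0.30 (log2) above the fitted ones in OVKATE. Of the 5, only EGFR was called above the next line by edgeR, and that call ended under DESeq2. OVMANA had the highest AREG and EREG (10.7% of genes) and lacked ERBB4 and TGFA. OVTOKO had the highest TGFA and NRG1 (9.52%) and lacked ERBB4, with 4 ERBB3 counts. SK-OV-3 had the highest ERBB2 and 1 ERBB3 count (18.7%). IGROV-1 kept EGFR, ERBB2 and ERBB4, and of the member ligands only HBEGF reached the floor of its PromethION pair. Outside the members, NRG2 was at 1.93 CPM and EGF at 1.07 CPM in that pair. COV504 and COV362 were highest for none of the 10, where they were the highest line for 11.8% and 10.3% of genes. Over all 21 pairs of lines, members were called in 128 of 210 tests, or 61.0%, beside 35.4% over all genes. This too describes members chosen with earlier results known. Of all genes, the share called against OVMANA was 38.5% in OVKATE, 24.9% in OVTOKO, 34.3% in SK-OV-3, 36.5% in COV362 and 33.6% in COV504. Against OVKATE it was 40.4% in OVTOKO, 38.5% in SK-OV-3, 33.2% in COV362 and 34.5% in COV504. Against OVTOKO it was 26.7% in SK-OV-3, 34.9% in COV362 and 31.3% in COV504. SK-OV-3 with COV362 gave 35.4%, SK-OV-3 with COV504 29%, and COV362 with COV504 25.2%. HBEGF was called in 8 pairs and AREG, the most often called member, in 16. Of the 60 steps between neighbouring lines 17 were called. With DESeq2 the call remained for 2 of these, the step of ERBB2 from SK-OV-3 to OVMANA and that of BTC from COV504 to IGROV-1. A share over all genes was not computed for such steps. The step counts therefore describe the order of lines and do not set the members apart from other genes.

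The test of each line against the other 6, with lines as replicates, called no member (edgeR, 12738 genes, of which 22 were called in any line). The share of genes called was 0.0864% in OVKATE, 0.0393% in OVMANA, 0.0314% in OVTOKO, 0.00785% in SK-OV-3 and in IGROV-1, and 0.0% in COV362 and COV504. At an unadjusted p under 0.05 there were 4 member results. They were ERBB2 in SK-OV-3 (log2 4.39 ± 0.67, adjusted p = 0.338), EREG in OVMANA (5.14 ± 1.39, adjusted p = 0.606), and lower NRG1 and BTC in IGROV-1 (adjusted p = 0.347 and 0.382). DESeq2 called 4: ERBB2 in SK-OV-3 (adjusted p = 0.00209) and lower AREG, NRG1 and BTC in IGROV-1 (0.036, 0.0281 and 0.0143). In simulated data of this design a log2 change of 5 was recovered for 90.0% of changed genes and a change of 2 for 0.5%. The spread between lines was assumed there, not taken from these data, and genes with few counts were not changed. These shares therefore need not hold for the real lines.

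The MinION and PromethION libraries of IGROV-1 were compared for the 3 members with enough counts. None was called, where 0.817% of 10041 genes were (edgeR), and 2 had an unadjusted p under 0.05. ERBB2 differed by a log2 of -0.05 ± 0.22 (MinION over PromethION, adjusted p = 0.937), EGFR by -0.38 ± 0.17 (adjusted p = 0.301) and ERBB4 by -0.62 ± 0.21 (adjusted p = 0.208). DESeq2 also called none. Without PromethION replicate 1, ERBB4 was called (-0.90, adjusted p = 0.0213). ERBB4 and EGFR were lower in both MinION libraries than in both PromethION libraries.

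The further EGF family ligands EGF, EPGN, NRG2, NRG3 and NRG4, did not pass the expression filter. EPGN and NRG3 were at 0 in every line, and NRG2, with up to 2.67 CPM on PromethION, was the highest of the rest. Of 12 genes that release or traffic ligands, 9 had counts in all 7 lines. ADAM12 was at 0 in OVMANA, OVKATE, OVTOKO and IGROV-1, ADAM19 in OVMANA and OVTOKO, and RHBDL2 in OVTOKO and IGROV-1. ADAM17, the main shedding protease of AREG, EREG, HBEGF and TGFA, was at 68.9 CPM in OVMANA and 16.3 in IGROV-1 (log2 change 2.14 ± 0.22, edgeR adjusted p = 0.000163). It was called higher than IGROV-1 in 5 lines, and in SK-OV-3 its adjusted p was 0.0515. RHBDF2, a partner of ADAM17, was at 35.6 CPM in OVKATE and 32.5 in COV504 against 7.07 in IGROV-1. Of these 12 genes, COV504 had 5 higher and 0 lower, COV362 5 and 3, OVKATE 5 and 2, OVMANA and OVTOKO 3 and 2 each, and SK-OV-3 2 and 2. Of all genes, 18.2% to 26.8% were higher and 15.9% to 22.4% lower, by line. The median log2 change ran from 0.00 in OVTOKO to 1.14 in COV504, beside medians over all genes between -0.01 and 0.04.

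Adaptors and effectors of the receptors moved in both directions. Of 15 genes, OVMANA had 4 higher and 2 lower, SK-OV-3 3 and 1, OVTOKO 3 and 3, OVKATE and COV504 3 and 4 each, and COV362 2 and 7. Beside the 18.2% to 26.8% of all genes higher and 15.9% to 22.4% lower, most of these counts lie near the background, and nothing particular to the list is read from them. EPS8, an EGFR substrate linked to the actin skeleton, was at 63.6 CPM in OVMANA, between 10.9 and 44.9 in the other 5 lines and at 0.215 in IGROV-1. PIK3R1, the regulatory subunit of PI3 kinase, was highest in IGROV-1 at 74.1 CPM and was called lower in all 6 lines. GRB2, the adaptor to RAS, was highest in OVKATE, at 268 CPM.

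Inhibitors and turnover genes likewise showed no common direction, over 14 genes. COV504 had 5 higher and 4 lower, OVKATE and OVTOKO 3 and 3 each, COV362 2 and 3, OVMANA 2 and 2, and SK-OV-3 1 and 0, beside the same shares of all genes. LRIG1, which promotes the breakdown of ERBB receptors, was at 103 CPM in COV504 and 68.2 in COV362, and between 1.07 and 12.4 in the other lines. LRIG3, a relative of LRIG1, was the gene called higher in SK-OV-3, at 15.2 CPM (edgeR adjusted p = 0.000983). It was listed at 0 in the IGROV-1 libraries and was at 41.4 CPM in COV504. ERRFI1, a kinase inhibitor of EGFR and ERBB2, was at 59.8 CPM in SK-OV-3 against 33.0 in IGROV-1 (log2 0.63 ± 0.23, adjusted p = 0.0572).

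Genes known to respond to ERK, a kinase cascade downstream of the receptors, differed widely between lines. Of 16 genes, COV362 had 8 higher than IGROV-1 and 2 lower, OVMANA 8 and 3, SK-OV-3 7 and 3, OVTOKO 7 and 4, and COV504 6 and 3, where 18.2% to 24.0% of all genes were higher and 15.9% to 19.8% lower. In OVKATE 1 was higher, ETV4, and 7 were lower, beside 26.8% and 22.4% of all genes. The median log2 change was highest in SK-OV-3 at 1.88, followed by OVMANA at 1.34, COV362 at 1.16, COV504 at 0.59 and OVTOKO at 0.52, and was -0.58 in OVKATE. These medians share IGROV-1 as reference, which was itself low for the list. With each line set against the 6 others, the median was -1.81 in IGROV-1 and -3.19 in OVKATE. It was 0.50 in OVMANA, 0.38 in SK-OV-3, -0.06 in COV362, -0.23 in COV504 and -0.49 in OVTOKO, beside -0.25 to -0.15 over all genes. DUSP6, a phosphatase of ERK, was at 3.46 CPM in OVKATE against 65.8 in IGROV-1 (log2 change -4.53 ± 0.46, edgeR adjusted p = 0.000106). SPRY4, an inhibitor of the cascade, was at 1.98 CPM in OVKATE and 1.501 in IGROV-1, and between 9.83 and 29.4 in the other lines. Among the lines, OVKATE was thus lowest in DUSP6 and IGROV-1 lowest in SPRY4. PHLDA1 reached 1041 CPM in SK-OV-3, against 42.0 in IGROV-1. FOSL1, an AP-1 subunit, was called higher than IGROV-1 in 5 lines, at 27.1 to 37.5 CPM against 0.428, and was at 2.47 CPM in OVKATE (adjusted p = 0.087). CCND1 went the other way, with 1038 CPM in IGROV-1 and lower calls in all 6 lines. Whether receptor or ligand levels set these values was not tested.

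**Figure D4:**
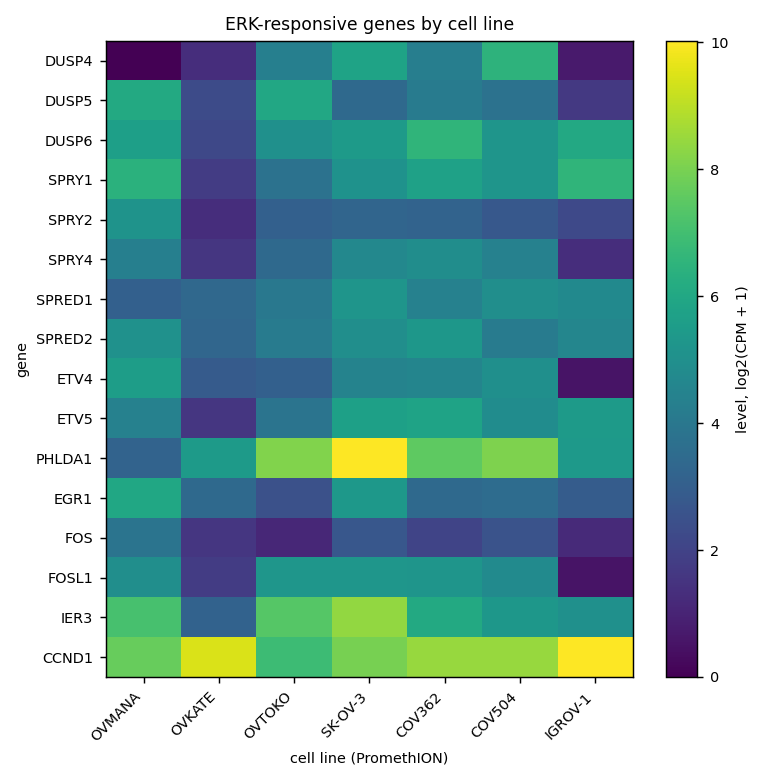
Level as log2(CPM + 1) of 16 ERK-responsive genes (rows) in the 7 lines (columns, PromethION, IGROV-1 as the mean of 2 libraries). The OVKATE column is dark for DUSP6 at 3.46 CPM and SPRY1 at 2.47 CPM; rows are compared across lines, not with each other.

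None of the listed factors with known roles at ERBB promoters had its highest RNA level in SK-OV-3, the line highest in ERBB2. Their part in the ERBB levels was not tested. TFAP2A was at 59.8 CPM in SK-OV-3 and 114 in IGROV-1 (log2 change -1.16 ± 0.21, edgeR adjusted p = 0.00279), and highest in OVTOKO at 139. TFAP2C was at 26.2 CPM in OVKATE and 17.8 in COV504, and at 0.507 in SK-OV-3. Of the 6 listed factors tested, SK-OV-3 had 0 higher and 3 lower, OVMANA 0 and 2, COV362 1 and 2, OVKATE and OVTOKO 2 and 1 each, and COV504 3 and 1, beside 18.2% to 26.8% of all genes higher and 15.9% to 22.4% lower.

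For each member, the genes most like it across the 7 PromethION lines were sought by Pearson's r of log2(CPM + 1) among 12744 genes. These r describe 7 points that share libraries and depth, and with so many genes high values occur by search alone. ERBB3 was most like TMC6 (0.99), PRRG2 (0.98) and PTK6 (0.98), the last a kinase of epithelial cells at 53.4 CPM in OVMANA and 50.9 in OVKATE. HBEGF was most like LAD1 (0.97), HPN (0.97) and MIR200CHG (0.97). AREG was most like OSBPL2 (0.99), YTHDF1 (0.98) and CRB3 (0.98). TGFA was most like SLC39A13 (0.99), MAPK3 (0.99) and GLIPR1 (0.98). ERBB4 was most like ZNF385B (0.98), SCAMP1-AS1 (0.97) and DHX8 (0.96). For ERBB2 they were PITPNM1 (0.98), POLDIP3 (0.97) and C16orf72 (0.96), and none of the 3 is among the neighbours listed above. EGFR gave DLEU2, RCE1 and NSUN7 (all 0.97), and EREG gave CCDC18 (0.99), PLA2G16 (0.98) and LPIN3 (0.97). NRG1 gave GBP3 (0.99), RBM43 (0.98) and OSBPL10 (0.98), and BTC gave S100A11, SCAF4 and ANXA11 (all 0.98).

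Within the family, the closest patterns were those of ERBB3 with AREG (r = 0.88), with HBEGF (0.85) and with EGFR (0.82) over the same 7 lines. EREG and AREG, neighbours in the genome, had 0.55. ERBB2 and EGFR had -0.56, and ERBB4 and EREG -0.65. Of the 5 epithelial markers, EPCAM, CDH1 and KRT19 were highest in OVMANA and OVKATE, the lines highest in ERBB3, AREG and HBEGF, while KRT8 and KRT18 were highest in COV504, at 3274 and 4627 CPM. EPCAM was at 1814 CPM in OVMANA and 817 in OVKATE and at 365 CPM or less in the other lines. The summed epithelial markers were at 8791 CPM in COV504, 5043 in OVMANA and 3976 in OVKATE, and between 460 and 1364 in the other 4. Their part in the result was not tested.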

How the data were processed

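RNA from 7 ovarian cancer cell lines was sequenced in 10 nanopore libraries. Per the labels' protocols, RNA was purified with a column kit and libraries were made with a ligation kit with end repair for 30 min. Per the submitters' processing notes, minimap2 2.24-r1122 and GRCh38 were used. For the quantifier, its settings and strand use, the sources used here state nothing. In the files the authors deposited, each transcript has an estimated count and a TPM value, which equalled the CPM and is not divided by length. Counts were summed per gene.

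Counts were rounded and tested with edgeR 4.0.16 (quasi-likelihood, TMM, default expression filter, two-sided, Benjamini-Hochberg over all genes, adjusted p under 0.05). DESeq2 1.42.0 was an alternative. IGROV-1 MinION was compared with PromethION in 4 libraries. The lines were compared in a fit of 10 libraries, whose spread comes from the IGROV-1 replicates (biological coefficient of variation 11.7%), and each with the 6 others with lines as replicates. Transcript usage was tested by edgeR's exon procedure with Simes p-values. In simulated data 42.0% of genes changed by a log2 of 1 were recovered between SK-OV-3 and IGROV-1 (12919 genes), and 99.0% at 2. The simulated SK-OV-3 library was given the spread of the IGROV-1 replicates, and genes with few counts were not changed. These shares need not hold for the real line or for members near 0 in IGROV-1. The IGROV-1 replicates differed by more than counting noise (chi-square per degree of freedom 4.04 and 6.27). Structures are from GENCODE 29, where all 42 transcripts have the deposited positions, and promoters from RefSeq.

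The rule for naming took all members, transcripts with at least 10% of a gene with 20 counts, the 3 genes most like each member among genes with at least 5 CPM, and up to 4 examples of largest change from each fixed list. The list genes named in the text, ERBB2-205 and ERBB2-218 were instead picked for their role or position after their values were seen. Members and lists were chosen with earlier results of these data known. A planned search of protein sequences was not run.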

Additional observations from a re-analysis of the deposited data

How the results depend on the processing

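Of 1200 values of members under other settings none changed direction in a call, and DESeq2 size factors in edgeR changed none of the 43 line calls or 17 steps. Genes called between instruments numbered 82, and 15 without a filter, 49 with all 10 libraries in the fit, and 4 (without MinION replicate 2) to 209 (without PromethION replicate 1) with a library left out. The replicate block gave 1979 genes, 1 member and 234 genes with changed usage (178 without it). That member was ERBB4, with an adjusted p of 0.000505. Deviations of same-numbered libraries correlated at 0.35, but 2 pairs do not establish pairing. Member calls between instruments were 0 to 1 with a library left out. DESeq2 called 3985 genes between lines and IGROV-1 where edgeR called 11184, and 578 genes and 4 members for each line against the 6 others where edgeR called 22 and 0. Usage calls with a library left out were 38 to 61 between instruments and 95 to 128 between lines, where 442 were called. Their cause was not tested. Leaving out a MinION library ended 7 or 8 of 17 steps between neighbouring lines. With transcripts under 1 count set to 0, the share of AREG-201 in COV504 became 100%. No member is a joined gene and all member transcripts are protein coding, so those alternatives equal the main values. Depth limits every share of a gene with few counts.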
